A study of Setaria viridis with 24 samples.

Results

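A set of 24 genes of Setaria viridis, a small C4 grass, had a group value at least 2-fold lower under drought in the 9 day old stem, while the crown of the same age showed little difference. The authors' test called 19 of them lower there, where 2.37% of all 18145 genes listed were called lower. The genes were picked for a low ratio in these same groups, which favours such a call. The genes were chosen from group values in FPKM (a fragment count normalised for transcript length and library size), as ratios with 1 FPKM added to both values. A member had a drought over watered ratio of at most 0.5 in the day 9 stem, a ratio between 0.8 and the reciprocal of 0.8 in the day 9 crown, and at least 5 FPKM in the watered day 9 stem. They are 24 of 20865 genes with a value in all 8 groups, and 24 of 13882 genes that met the expression minimum. The plants were either watered or under drought, and 20 plants made up a sample, taken at day 6 or day 9 from sowing. RNA came from a lower region, the crown, or an upper region, the stem. This gave 8 groups of 3 libraries, 1 from each of 3 biological repeats, with watered plants of the same region and day as the controls. The labels name no plant line and no severity of the drought.

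As background, the crown is the compact zone of nodes at the base of a grass shoot, and the shoot-borne roots that make up most of the root system of a grass grow out from it. The stem above it carries the leaf bases and young internodes, where cells divide and then expand. Water deficit slows cell expansion in such tissue early on, and many transcripts that accompany growth fall with it. The study asked, per its title, how grasses hold back shoot-borne roots in drought. The genes carry identifiers alone, since the files give a description for 0 genes and 0 identifiers matched the reference table, so that no function is assigned to any of them. For the same reason the region labels were not checked against marker genes. In RNA from whole regions, fewer cells of a type and less RNA per cell cannot be told apart.

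Each FPKM below is the authors' value for a group of 3 libraries and carries no standard deviation, and the read depth behind it is unknown. Where a difference is said to be called, the authors' Cuffdiff test across the libraries gave an adjusted p (q) under 0.05 in their deposited table for that pair of groups. The q-values matched the procedure of Benjamini and Hochberg applied once to 531416 rows, those of all 28 tables. They therefore do not limit the share of false calls within a single table. A gene with under 1.97 FPKM in both groups was not listed in a table. Some genes above that level were not listed either, such as Sevir.4G147000 in the day 6 crown.

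Most genes with a lower level in the day 9 stem also had a lower crown value, by a looser limit. Of 267 genes with a stem ratio of at most 0.5 and the required expression, 237 had a crown ratio under 0.8, 6 lay above the crown window and 24 inside it. Of all 13882 genes with that expression, 9570 lay inside the window. A crown ratio of at most 0.5 was reached by 147 of the 237, and by 2.33% of the 13882. The authors called 158 of 233 listed lower in the day 9 crown, against 4.17% of all genes. The 237 were chosen by that same crown ratio, which favours both counts, so the counts are a description. The 24 are thus the small share of the stem response that the crown window singled out, and the limits cut through a continuum. Just inside the stem limit, Sevir.9G439700 had a ratio of 0.488 and Sevir.5G207700 of 0.486. Just outside it, Sevir.2G220300 stood at 0.506, Sevir.4G077300 at 0.508 and Sevir.5G415900 at 0.509. At the lower limit of the crown window Sevir.5G454400 was inside at 0.829 and Sevir.6G022800 outside at 0.792. At its upper limit Sevir.7G050400 was inside at 1.23 and Sevir.8G179500 outside at 1.31. The expression minimum separated Sevir.5G386700, at 5.06 FPKM in the watered day 9 stem, from Sevir.4G298500 at 4.93 FPKM.

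**Figure D1:**
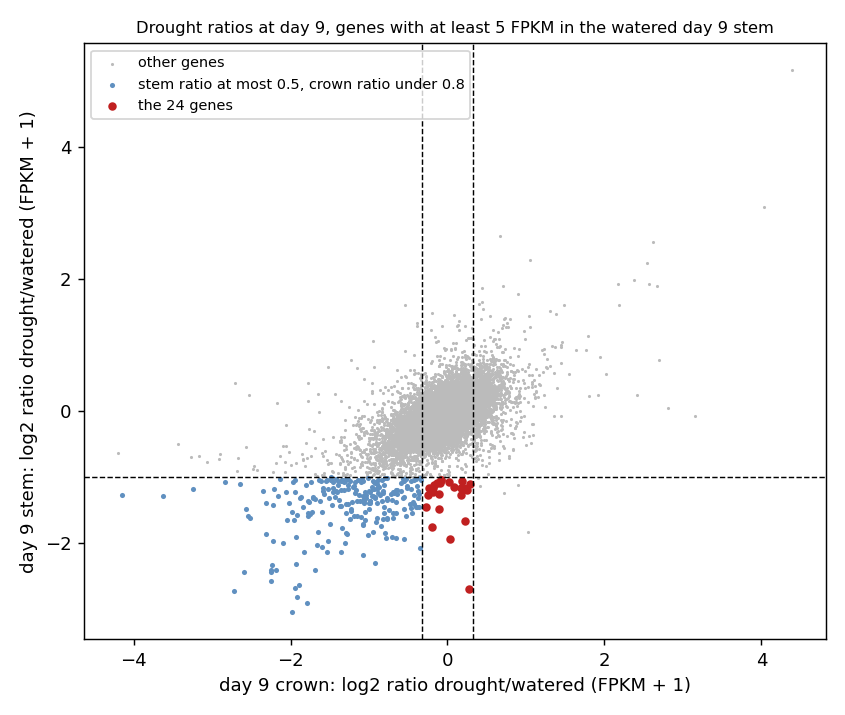
Each point is 1 of 13882 genes with at least 5 FPKM in the watered day 9 stem, placed by the log2 ratio of drought over watered FPKM (1 added) in the day 9 crown (horizontal) and the day 9 stem (vertical), with dashed lines at the limits of the rule. The 24 genes lie in the narrow box below the horizontal line, between -1.04 and -2.69 in the stem and between -0.27 and 0.29 in the crown. Beside them lie 237 genes with a stem ratio of at most 0.5 and a crown ratio under 0.8.

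The rule fixed the day 9 drought values, which are therefore given as a description. The stem ratios ran from 0.155 for Sevir.2G081100 to 0.488 for Sevir.9G439700, with a median log2 ratio of -1.16. In the crown 13 members lay below and 11 above an even ratio. The authors called 19 of the 24 lower in the day 9 stem, where 2.37% of all 18145 genes listed were called lower and 1.26% higher. The other 5 were not called per the authors' deposited table, namely Sevir.1G229000 (q = 0.066), Sevir.1G319500 (q = 0.077), Sevir.9G439700 (q = 0.112), Sevir.4G147000 (q = 0.381) and Sevir.5G466900 (q = 0.46). In the day 9 crown 22 members were listed and Cuffdiff called 0 of them, against 6.37% of all genes, and 0 of the 22 had an unadjusted p under 0.05. Their q-values per the authors' deposited table were between 0.717 and 0.981, which the window makes likely and which does not show that the crowns were equal.

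The members differed in how the watered stem changed with age, and are described in that order. At day 9, 14 members stood at least 2-fold above their day 6 level in watered stems, on the FPKM + 1 scale. Another 8 lay less than 2-fold apart, and 2 stood at least 2-fold lower. Among all genes with the required expression, 3.32% were at least 2-fold higher and 3.06% at least 2-fold lower. The watered day 9 stem value enters the rule with a minimum, so this split is a description, made after the values were seen. By the authors' test 11 of the 24 rose with age in watered stems, against 4.41% of all genes, and 2 fell, against 6.76%.

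**Figure D2:**
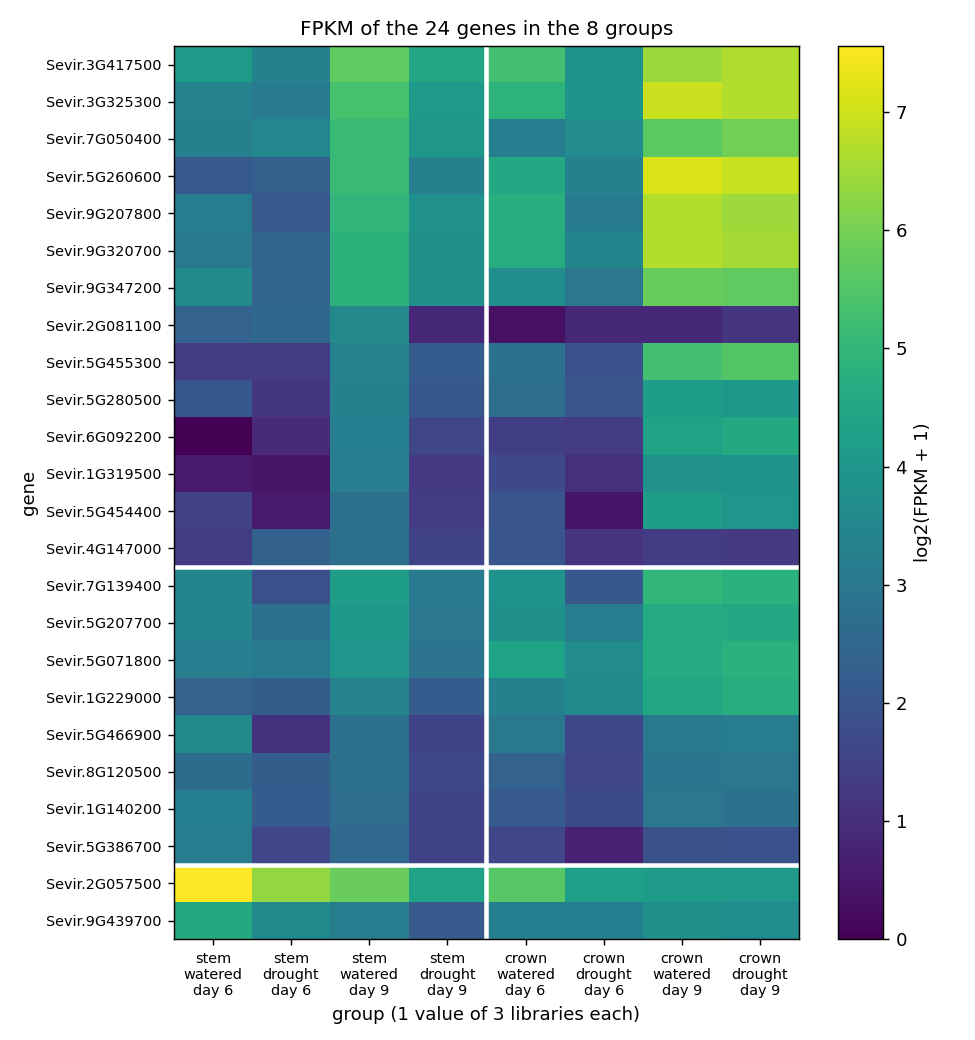
Colours give log2(FPKM + 1) of the 24 genes (rows) in the 8 groups (columns, 1 value of 3 libraries each). White lines part the stem from the crown and, from top to bottom, the 14 genes at least 2-fold higher at day 9 than at day 6 in watered stems, the 8 less than 2-fold apart and the 2 at least 2-fold lower. The 2 day 9 crown columns are alike because the crown window of the rule requires it.

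Among the 14, the 7 members with the highest watered day 9 stem level shared a profile: low at day 6, high in both day 9 crowns and in between in the watered day 9 stem. Sevir.5G260600 (chromosome 5, 30948172 to 30949380) stood at 3.38 and 3.91 FPKM in watered and drought stems at day 6, and 32.8 and 9.04 FPKM at day 9. Its crown values were 22.8 and 9.03 FPKM in watered and drought crowns at day 6, and 139 and 121 FPKM at day 9. The drought day 9 stem thus lay near the day 6 crown under drought, while both day 9 crowns were at 121 FPKM or more. Sevir.3G325300 (chromosome 3, 35778158 to 35779712) had 9.42 and 7.87 FPKM in watered and drought stems at day 6, and 40.3 and 16.2 FPKM at day 9. In the crown it had 28.5 and 14.1 FPKM in watered and drought crowns at day 6, and 122 and 102 FPKM at day 9, and all 4 crown values were above the stem value of the same day and treatment. Sevir.9G207800 (chromosome 9, 14810515 to 14811199) was at 7.99 and 3.35 FPKM in watered and drought stems at day 6, and 30.6 and 13.1 FPKM at day 9. The crown gave 26.3 and 7.54 FPKM in watered and drought crowns at day 6, and 102 and 86.1 FPKM at day 9. The day 6 crowns thus already differed by treatment, and the day 9 crowns hardly did, as the crown window requires. Sevir.9G320700 (chromosome 9, 35099176 to 35100008) had values close to those of Sevir.9G207800. They were 7.28 and 4.31 FPKM in watered and drought stems at day 6, and 27.9 and 12.5 FPKM at day 9. For its crown they were 24.7 and 10.0 FPKM in watered and drought crowns at day 6, and 102 and 92.7 FPKM at day 9.

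The other 3 of these abundant genes had smaller region differences. Sevir.3G417500 (chromosome 3, 49086353 to 49087110) stood at 16.6 and 9.00 FPKM in watered and drought stems at day 6, and 51.5 and 21.9 FPKM at day 9. In crowns it stood at 38.7 and 13.6 FPKM in watered and drought crowns at day 6, and 84.2 and 101 FPKM at day 9, so that its day 9 crown value was higher under drought and its day 6 value lower. Sevir.7G050400 (chromosome 7, 12777234 to 12779366) was at 8.70 and 10.5 FPKM in watered and drought stems at day 6, and 33.3 and 15.0 FPKM at day 9, with no lower value under drought at day 6. Its crown values were 8.39 and 11.5 FPKM in watered and drought crowns at day 6, and 49.5 and 60.8 FPKM at day 9, again without a lower value under drought. Sevir.9G347200 (chromosome 9, 38328842 to 38339010) had 10.9 and 4.54 FPKM in watered and drought stems at day 6, and 27.7 and 12.5 FPKM at day 9, and was lower under drought at both ages. The crown of Sevir.9G347200 was at 12.1 and 7.02 FPKM in watered and drought crowns at day 6, and 54.6 and 51.2 FPKM at day 9.

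A further 5 of the 14 shared that profile at lower levels. Sevir.5G455300 (chromosome 5, 44828589 to 44830267) stood at 1.49 and 1.49 FPKM in watered and drought stems at day 6, and 9.20 and 3.57 FPKM at day 9. Its crown values were 6.26 and 2.71 FPKM in watered and drought crowns at day 6, and 38.7 and 45 FPKM at day 9, the strongest age difference of these 5 in FPKM. Sevir.5G280500 (chromosome 5, 32758340 to 32759306) was at 3.21 and 1.27 FPKM in watered and drought stems at day 6, and 8.91 and 3.26 FPKM at day 9, and in the crown at 5.52 and 2.97 FPKM in watered and drought crowns at day 6, and 17.5 and 15.3 FPKM at day 9. Sevir.6G092200 (chromosome 6, 8962953 to 8963914) was listed at 0 FPKM in the watered day 6 stem and had 0.877 FPKM under drought, against 8.68 and 2.06 FPKM at day 9. Crown values of Sevir.6G092200 were 1.64 and 1.49 FPKM in watered and drought crowns at day 6, and 19.6 and 23.0 FPKM at day 9. Sevir.1G319500 (chromosome 1, 36648001 to 36648621) was nearly silent in the young stem, with 0.454 and 0.312 FPKM in watered and drought stems at day 6, and 8.34 and 1.45 FPKM at day 9. The crown of Sevir.1G319500 had 2.20 and 1.08 FPKM in watered and drought crowns at day 6, and 13.1 and 13.5 FPKM at day 9. Sevir.5G454400 (chromosome 5, 44781837 to 44783304) had 1.76 and 0.474 FPKM in watered and drought stems at day 6, and 5.92 and 1.52 FPKM at day 9. Its crowns gave 2.87 and 0.357 FPKM in watered and drought crowns at day 6, and 17.6 and 14.4 FPKM at day 9, and the drought day 6 crown held the lowest value of the 8 groups.

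The last 2 of the 14 had a higher value in the stem than in the crown in watered plants at day 9, a difference called for Sevir.2G081100 (q = 0.00091) and not for Sevir.4G147000 (q = 0.224) per the authors' deposited table. Sevir.2G081100 (chromosome 2, 6806520 to 6808015) had the lowest stem ratio of all members, 0.155, and stood at 4.22 and 4.84 FPKM in watered and drought stems at day 6, and 10.9 and 0.837 FPKM at day 9. Its crown values were only 0.272 and 0.842 FPKM in watered and drought crowns at day 6, and 0.825 and 1.21 FPKM at day 9, so low that the gene was not listed in the authors' drought tables of the crown. Its day 9 crown ratio met the window only through the added 1 FPKM. Without that constant the 2 day 9 crown values lie further apart than the window allows. The drought day 9 stem of Sevir.2G081100 had come down to the crown level. Sevir.4G147000 (chromosome 4, 19276404 to 19276794) stood at 1.47 and 4.13 FPKM in watered and drought stems at day 6, and 5.85 and 1.87 FPKM at day 9. The crown had 3.09 and 1.19 FPKM in watered and drought crowns at day 6, and 1.61 and 1.43 FPKM at day 9, with no listing in the authors' day 9 crown table either. None of its drought or age differences was called per the authors' deposited tables.

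**Figure D3:**
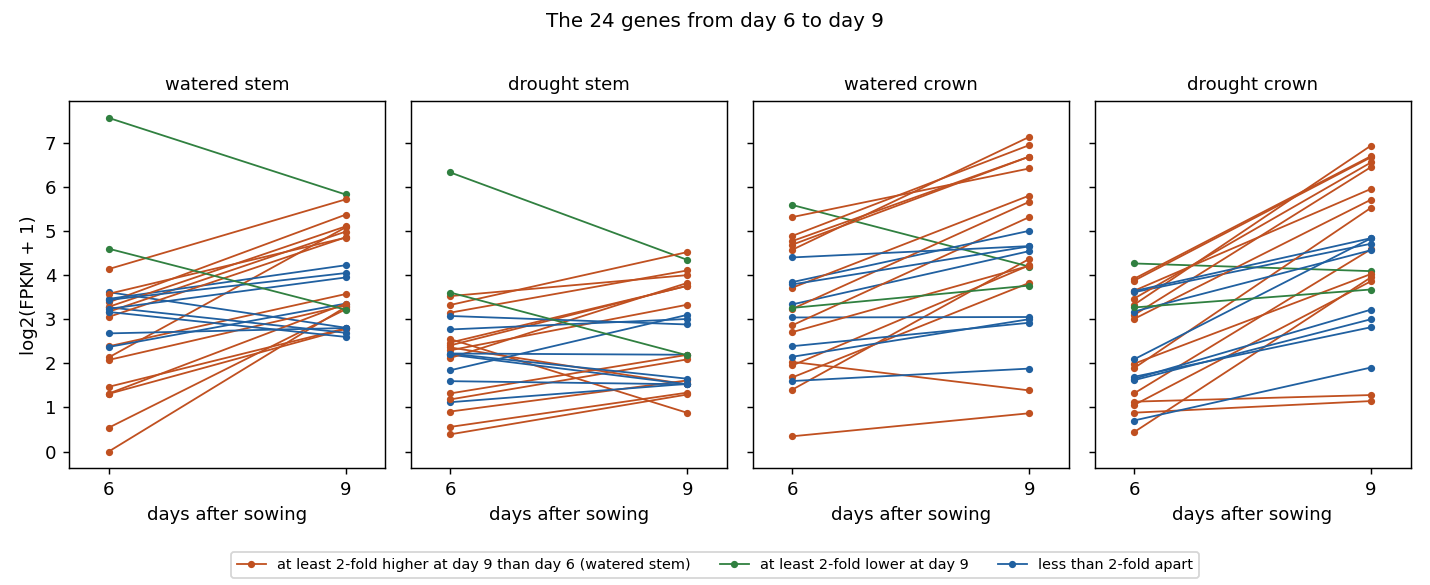
Lines join the day 6 and day 9 values, as log2(FPKM + 1), of each of the 24 genes in 4 settings (watered stem, drought stem, watered crown, drought crown), with colour by the age difference in the watered stem. Of the 14 genes in orange, 14 climb in the watered stem and in the drought crown and 13 in the watered crown, while in the drought stem 12 climb and 2 fall, and 5 reached a 2-fold increase there.

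The 8 members in between had stem values under drought that were below the watered ones at both ages. Sevir.7G139400 (chromosome 7, 21310194 to 21311095) had 10.0 and 2.59 FPKM in watered and drought stems at day 6, and 17.7 and 7.56 FPKM at day 9. In the crown it stood at 13.3 and 3.26 FPKM in watered and drought crowns at day 6, and 31.0 and 27.5 FPKM at day 9. The small crown gap at day 9 is set by the crown window. Sevir.5G207700 (chromosome 5, 25246360 to 25249402) was at 9.82 and 5.81 FPKM in watered and drought stems at day 6, and 15.5 and 7.02 FPKM at day 9. Crown values of Sevir.5G207700 were 12.8 and 8.01 FPKM in watered and drought crowns at day 6, and 24.1 and 22.6 FPKM at day 9. Sevir.5G071800 (chromosome 5, 5685282 to 5688270) stood at 8.40 and 7.41 FPKM in watered and drought stems at day 6, and 14.4 and 6.36 FPKM at day 9, hardly apart at day 6. In crowns the values were 20.1 and 11.4 FPKM in watered and drought crowns at day 6, and 24.2 and 27.5 FPKM at day 9. Sevir.1G229000 (chromosome 1, 29713916 to 29714621) had 4.17 and 3.67 FPKM in watered and drought stems at day 6, and 9.21 and 3.57 FPKM at day 9, and the crown had 9.08 and 11.2 FPKM in watered and drought crowns at day 6, and 22.3 and 25.1 FPKM at day 9, with no lower value under drought in the crown. These 4 were all higher in the crown than in the stem at day 9, with or without drought.

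The remaining 4 of the 8 were weakly expressed, and stood higher in the watered day 6 stem or near their day 9 level there. Sevir.5G466900 (chromosome 5, 45539992 to 45540241), the shortest locus of the 24, was at 11.2 and 1.17 FPKM in watered and drought stems at day 6, and 5.99 and 1.90 FPKM at day 9. Its crown values were 7.22 and 2.14 FPKM in watered and drought crowns at day 6, and 7.27 and 8.29 FPKM at day 9, and no difference of this gene was called per the authors' deposited tables. Sevir.8G120500 (chromosome 8, 19823534 to 19825788) stood at 5.40 and 3.65 FPKM in watered and drought stems at day 6, and 5.96 and 2.14 FPKM at day 9, and in the crown at 4.23 and 2.07 FPKM in watered and drought crowns at day 6, and 6.56 and 6.99 FPKM at day 9. Sevir.1G140200 (chromosome 1, 14742737 to 14744957) had 8.64 and 3.58 FPKM in watered and drought stems at day 6, and 5.46 and 1.88 FPKM at day 9, and its crown 3.43 and 2.24 FPKM in watered and drought crowns at day 6, and 7.0 and 6.05 FPKM at day 9. Sevir.5G386700 (chromosome 5, 40281107 to 40285479) had 7.96 and 2.02 FPKM in watered and drought stems at day 6, and 5.06 and 1.88 FPKM at day 9. With 2.03 and 0.629 FPKM in watered and drought crowns at day 6, and 2.68 and 2.74 FPKM at day 9, it was below the stem in the watered crown on both days.

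Finally, 2 members declined with age in watered stems. Sevir.2G057500 (chromosome 2, 4521785 to 4522675) had the highest watered day 9 stem level of the 24 and stood at 188 and 79.0 FPKM in watered and drought stems at day 6, and 55.6 and 19.3 FPKM at day 9. The crown had 47.1 and 18.2 FPKM in watered and drought crowns at day 6, and 17.3 and 16.0 FPKM at day 9. Its fall from day 6 to day 9 was called in watered stems (log2 fold change -1.75), drought stems (-2.04) and watered crowns (-1.45) but not in drought crowns (-0.18, q = 0.848) per the authors' deposited tables. The neighbouring gene Sevir.2G057600 (chromosome 2, 4524401 to 4525226) lies 1725 bp away and was picked after its values were seen. Other members had nearer neighbours without a lower value, such as Sevir.5G467000 (155 bp from Sevir.5G466900, day 9 stem ratio 1.12) and Sevir.8G120600 (195 bp from Sevir.8G120500, 1.44). Sevir.2G057600 had 199.6 and 72.3 FPKM in watered and drought stems at day 6, and 27.7 and 4.84 FPKM at day 9. In the crown Sevir.2G057600 had 44.1 and 11.8 FPKM in watered and drought crowns at day 6, and 8.78 and 4.18 FPKM at day 9, a day 9 ratio of 0.529 that kept it outside the crown window. Sevir.9G439700 (chromosome 9, 46200720 to 46201645) was at 23.2 and 11.1 FPKM in watered and drought stems at day 6, and 8.29 and 3.53 FPKM at day 9, and in the crown at 8.55 and 8.61 FPKM in watered and drought crowns at day 6, and 12.6 and 11.7 FPKM at day 9, with the smallest spread over the 4 crown groups of these 2 genes.

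At day 6, in libraries that the rule did not use, members were lower under drought in both regions more often than higher. In the stem 20 of the 24 were listed and 5 were called lower, where 0.916% of all 17795 genes listed were called lower, and 0 were called higher (0.528% of all genes). Without adjustment, 10 members had a p under 0.05 in the lower and 0 in the higher direction, by the authors' Cuffdiff test. The 5 were Sevir.2G057500, Sevir.5G386700, Sevir.7G139400, Sevir.1G140200 and Sevir.9G347200. In the authors' deposited table Sevir.5G386700 had a log2 change of -1.98 (q = 0.00091) and Sevir.7G139400 of -1.95 (q = 0.0325). Sevir.1G140200 had a log2 change of -1.27, Sevir.9G347200 of -1.26 and Sevir.2G057500 of -1.247 per the authors' deposited table, with q-values of 0.013, 0.0109 and 0.00091. Only 1 of the 5 belongs to the 14 members that stood higher at day 9 in watered stems. The 10 members outside that class were all lower under drought in value in the day 6 stem, while 8 of the 14 were lower and 6 higher. The class and the day 6 stem ratio are both taken over the watered day 6 stem value, which favours such a split. The difference between the classes was therefore not tested, and nothing is read from it.

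The day 6 crown gave 7 calls lower and 0 higher among 20 members listed, where 1.58% of all 18417 genes were called lower and 0.5% higher. By unadjusted p under 0.05 the Cuffdiff counts were 13 lower and 0 higher. The largest was that of Sevir.7G139400, from 13.3 to 3.26 FPKM, a log2 change of -2.03 per the authors' deposited table (q = 0.0101). Sevir.9G207800 followed with a log2 change of -1.80 (q = 0.00091) per the authors' deposited table, Sevir.3G417500 with -1.51 (q = 0.00359) and Sevir.2G057500 with -1.37 (q = 0.00359). The remaining calls were Sevir.5G260600 (-1.33), Sevir.9G320700 (-1.30) and Sevir.3G325300 (-1.02), with q-values of 0.00298, 0.0208 and 0.0232 per the authors' deposited table. Of these 7, 5 belong to the 14 that stood higher at day 9. Only 3 members had a day 6 crown ratio inside the window that the rule set at day 9, and 8 had a ratio of at most 0.5, as did 1.22% of the genes with the required expression. The 24 are therefore genes of the day 9 stem by the rule, and not genes whose crown level was without drought differences at the younger age.

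**Figure D4:**
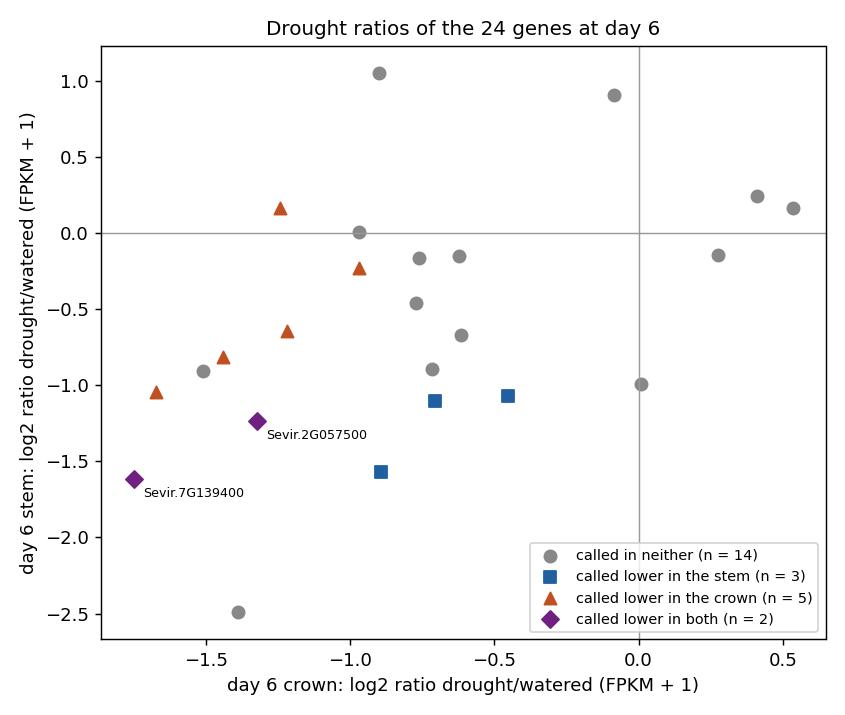
Each of the 24 genes is placed by its log2 ratio of drought over watered FPKM (1 added) in the day 6 crown (horizontal) and the day 6 stem (vertical), with symbols for the authors' calls in each region. 16 genes lie below 0 on both axes and 2 above 0 on both, and Sevir.2G057500 and Sevir.7G139400 were called lower in both.

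Both day 6 comparisons called Sevir.2G057500 and Sevir.7G139400, which is 40% of the stem calls and 28.6% of the crown calls. Together they called 10 members, all of them also called in the day 9 stem, and 14 members had no day 6 call. In group values 18 members were lower under drought in the day 6 stem (52.6% of all genes were) and 20 in the day 6 crown (54.1% of all genes), 16 of them in both. The median log2 ratio of the 24 was -0.66 in the stem and -0.83 in the crown, against -0.02 and -0.03 for all genes. For the 237 stem-lowered genes with a day 9 crown ratio under 0.8 the medians were -0.54 and -0.86. Of these, 39 of 203 listed were called lower in the day 6 stem and 101 of 227 in the day 6 crown. The difference between the 24 and the 237 was not tested. Stem and crown came from the same 3 biological repeats, and the labels do not say whether they came from the same plants.

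Between regions at day 6, the 24 were mixed. In watered plants 7 of 22 members listed were called higher in the crown and 4 lower, against 8.3% and 12.3% of all genes. The higher ones with the largest differences were Sevir.5G260600 with a log2 change of crown over stem of 2.75, Sevir.5G455300 with 2.07, Sevir.9G320700 with 1.76 and Sevir.9G207800 with 1.72, per the authors' deposited table (q from 0.00091 to 0.0126). The lower ones were Sevir.2G057500 (-2.0), Sevir.5G386700 (-1.97), Sevir.9G439700 (-1.44) and Sevir.1G140200 (-1.33) per the authors' deposited table (q from 0.00091 to 0.0105). Under drought 1 of 20 members listed was called higher in the day 6 crown, against 6.44% of all genes, and 2 lower, against 10.7%. The higher one was Sevir.1G229000 (1.61, q = 0.0325) and the lower ones were Sevir.2G081100 (-2.52) and Sevir.2G057500 (-2.12), per the authors' deposited table. Sevir.5G260600 for example had a log2 change of 1.21 there (q = 0.0787), a smaller value than in watered plants. Whether the region difference changed with drought was not tested. In group values, 14 members were higher in the crown than in the stem in all 4 settings of day and treatment, and 1, Sevir.2G057500, was lower in all 4.

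In the crown most members increased with age under both treatments, a comparison with the rule's day 9 crown values on 1 side, from which nothing is read about drought. In watered crowns 17 of 22 members listed were called, against 10.6% of all genes, 16 of them higher at day 9 (8.56% of all genes) and 1 lower (2% of all genes). In drought crowns the counts were 19 and 0 of 22, against 7.97% and 2.59%, with 19 higher and 0 lower also by unadjusted p under 0.05 in the Cuffdiff test. The median log2 ratio of day 9 over day 6 was 1.18 in watered and 2.17 in drought crowns. The larger value under drought follows from lower day 6 levels and level day 9 values. Sevir.5G260600 had log2 changes of 2.61 in watered and 3.74 in drought crowns per the authors' deposited tables, and Sevir.9G207800 of 1.95 and 3.51. Sevir.5G454400 went from 0.357 to 14.4 FPKM in drought crowns, a log2 change of 5.34 (q = 0.0393) per the authors' deposited table.

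In the drought stem the same step in age was smaller, which the low day 9 stem level required by the rule favours. Of 20 members listed there, 4 were called higher at day 9, against 4.08% of all genes, and 3 lower, against 7.3%. The 4 were Sevir.9G207800, Sevir.9G320700, Sevir.9G347200 and Sevir.3G417500, with log2 changes of 1.97, 1.54, 1.46 and 1.29 per the authors' deposited table. The 3 were Sevir.2G081100 (-2.53), Sevir.2G057500 (-2.04) and Sevir.9G439700 (-1.66) per the authors' deposited table. The median ratio of day 9 over day 6 was 1.5 in drought and 2.38 in watered stems. For 12 of the 24 the drought day 9 stem stood below the watered day 6 stem. That held for 2 of the 14 members that were higher at day 9 in watered stems, Sevir.2G081100 and Sevir.5G454400, and for all 10 of the others. For these 10 it was fixed in advance, by a drought ratio of at most 0.5 and an age ratio under 2. Nothing is therefore read from this contrast.

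At day 9 the rule makes the ratio of crown over stem higher under drought than in watered plants for each member. The crown was above the stem in 20 members in watered plants and in 22 under drought. For the 4 with more in the watered stem the regions came closer in value, as in Sevir.2G057500, whose crown over stem ratio (1 FPKM added) was 0.323 in watered and 0.839 in drought plants, or changed order, as in Sevir.2G081100 with 0.154 and 1.20. The authors called 8 of 24 members higher in the crown in watered plants, against 12% of all genes, and 2 lower, against 6.88%. Under drought 19 of 22 listed were higher, against 11.6%, and 0 lower, against 6.64%. By unadjusted p under 0.05 the Cuffdiff counts under drought were 19 and 0. Of the 237 stem-lowered genes with a crown ratio under 0.8, 88 of 237 were called higher in the crown in watered plants and 10 lower. Under drought 100 of 230 listed were called higher and 11 lower. The highest day 9 level of the 24, 139 FPKM for Sevir.5G260600 in the watered day 9 crown, compares with 9.04 FPKM in the drought day 9 stem. Over the 8 groups, 17 members had their highest value in a day 9 crown, 9 in the watered and 8 in the drought one. Another 5 had it in the watered day 6 stem and 2 in the watered day 9 stem, Sevir.2G081100 and Sevir.4G147000.

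The members were spread over the 9 chromosomes, with 8 on chromosome 5, which holds 14.4% of all genes, and 4 on chromosome 9, which holds 18.3%. The positions are those of the files, whose build is not given in the sources used here. No member was adjacent to another among the genes with values. The closest pair, Sevir.5G454400 and Sevir.5G455300 on chromosome 5, lay 45284 bp apart, and 6 genes with values lay in between. Position entries were short, with a median of 1088 bp and a range from 250 to 10169 bp, against a median of 3983 bp for the genes with the required expression. Of the 24, 17 spanned less than 2000 bp, as did 15.6% of the expressed genes. A short transcript collects fewer fragments at a given FPKM, and the part of length in the selection was not tested.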

How the data were processed

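Strand-specific libraries from RNA depleted of ribosomal RNA were sequenced, per the labels' protocols. Cuffdiff, cutadapt and FastQC are listed in the submitters' processing notes. Which aligner and genome build they used is not given in the sources used here. Each of 28 deposited tables compares a pair of the 8 groups. Per the file headers, each gives the authors' FPKM value of both groups, their log2 fold change, and a p-value and q-value from 3 libraries a group. A group had the same FPKM in all of its 7 tables, and the deposited log2 values matched the FPKM ratios within 4.76e-05.

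Group values were joined by gene and the members were chosen as stated, with Python 3.11.15 and pandas 2.3.3. The selection was run on a simulated table without noise, and the adjustment on simulated p-values. The planted genes lay well inside the limits of the rule. That run checks only that the rule was coded as stated, and not how it treats genes near the limits. No test across libraries could be run on group values, so calls are the authors' (q under 0.05). The members and lists were chosen with earlier results of these data known.

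Named genes were the 8 with the lowest stem ratio, the 8 with the highest watered day 9 stem level, 3 on each side of the stem limit, up to 4 a direction called at day 6 by drought or by region, and the 4 highest and lowest in age ratio of the watered stem. The other members and their neighbours were added after the values were seen. Each of 12 comparisons that differ in 1 factor was described, 4 of them at day 6 in libraries the rule did not use. Planned gene and marker lists had 0 members, since 0 identifiers matched the 34587 reference genes (assembly Setaria_viridis_v4.0). Alternatives to the rule and the call threshold were tried. Depth per library is unknown.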

Additional observations from a re-analysis of the deposited data

How the results depend on the processing

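The size of the set depended on the limits. Against 24 genes, the rule gave 40 with 0.1 FPKM added to both values and 7 with 5 FPKM added. It gave 12 with a minimum of 10 FPKM in the watered day 9 stem and 50 with no minimum, 9 with a crown window from 0.9 to its reciprocal, and 6 with a stem ratio of at most 0.4. A crown window of 0.67 to 1.5, chosen after seeing the data, gave 56. Centring on the median gene gave 25, of which 23 are among the 24. The number of day 6 stem calls fell from 5 to 2 at an adjusted p under 0.01, to 2 when adjusted within that table alone, and to 3 of 12 members with at least 10 FPKM. In the day 6 crown 7 calls became 4 at an adjusted p under 0.01 and 4 when adjusted within that table alone. Between regions in watered plants at day 6, 11 calls among 22 listed members became 7 at an adjusted p under 0.01 (4 higher and 3 lower in the crown). Of the 12 members with at least 10 FPKM, 7 were called, 6 higher and 1 lower in the crown. Each of the day 6 drought calls was in the lower direction under all 5 alternatives. Median day 6 ratios kept their sign, between -0.75 and -0.63 in the stem and between -1.01 and -0.81 in the crown. No paired analysis was possible because the tables hold 1 value per group, and for the same reason replicates were not left out in turn. The authors' test, single group values and unknown depth limit how firmly any gene is placed in the set, above all the 5 not called in the day 9 stem.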

Other observations

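Few genes lowered under drought in the day 9 stem had a higher value in the crown. The reverse, higher in the stem and lower in the crown, was not counted. The 6 genes with a stem ratio of at most 0.5 and a crown ratio above the window, chosen after their values were seen, had crown ratios from 1.31 to 2.04, and Cuffdiff called 0 of the 6 in the day 9 crown per the authors' deposited table. Sevir.9G258500 (chromosome 9, 21052771 to 21054340) stood at 12.0 and 2.65 FPKM in watered and drought day 9 stems, against 5.52 and 12.3 FPKM in the crowns. All 6 were lower under drought in value in the day 6 stem and 5 of 6 in the day 6 crown, so that the crown value changed direction between the days in these 5 genes, without a test.

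Of 48 genes directly adjacent to a member, 36 were listed in the day 9 stem table, and the authors called 5 of them lower under drought (2.37% of all genes) and 2 higher (1.26% of all genes). Of the 48, 2 are named here, picked after their values were seen. Sevir.5G454500 (chromosome 5, 44793313 to 44795294), adjacent to Sevir.5G454400, stood at 4.51 FPKM in watered and 19.8 FPKM in drought day 9 stems, a log2 change of 2.13 (q = 0.00091) per the authors' deposited table. Sevir.7G050300 (chromosome 7, 12772839 to 12775341), 1892 bp from Sevir.7G050400, went with it, from 14.3 to 4.01 FPKM (log2 fold change -1.84, q = 0.00298, authors' deposited table), and its crown ratio of 0.617 kept it out of the window.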
